A study of Mus musculus with 4 samples.

Results

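The comparison described here sets M1-2 against M2-3, a pair of mouse oral squamous cell carcinoma lines cultured from tongue tumors of separate animals. Both tumors arose in C57BL/6 mice (B6, the C57BL/6JNarl substrain) that drank water with 4-nitroquinoline 1-oxide (4-NQO), a DNA-damaging carcinogen, and arecoline, the main alkaloid of areca nut. Both lines were derived by repeated passage on plastic in DMEM with fetal bovine serum, and neither went through sphere culture. The series holds 4 arrays, 1 for each line. The others are NHRI-HN1, grown from spheres of M1-2, and NHRI-HN2, grown from spheres of M2-3. Both were returned to the same serum medium after sphere culture. The paper does not state the medium or passage of the cells used for RNA. The original cultures were heterogeneous at early passage, each line stands for 1 tumor of 1 mouse, and each array stands for 1 culture, so no error can be attached to any value and no test is possible. A difference between M1-2 and M2-3 holds the difference between tumors, the drift of each culture and the error of 2 arrays, and these cannot be told apart.

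The arrays were Affymetrix Mouse Clariom S. The deposited values were taken as log2 expression and averaged over the probe sets of a gene. The difference of a gene is its value in M1-2 minus its value in M2-3. Only genes at 8 or more in at least 1 of the 2 lines were counted, and a gene was called higher in M1-2 or higher in M2-3 where its difference was 2 log2 units or more. Of 19505 named genes, 7328 reached 8 in at least 1 line and 1851 of these were called, 805 as higher in M1-2 and 1046 as higher in M2-3. These are 4.13% and 5.36% of all named genes, and they are the background beside which the counts of each gene group below are given. Only genes that reached 8 could be called, and 25.3% of those were called in either direction. A list whose members are mostly bright can therefore exceed the background without exceeding the share among bright genes. The gene groups are lists written from general knowledge, and their members are counted over all that were measured.

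The scale needs care. The values ran from 1.48 to 19.77, and the upper end exceeds what a plain log2 of scanner output would give, so a step of 1 unit cannot be read as a doubling of RNA. The lower quartiles of M1-2 and M2-3 were 3.13 and 3.06, the medians 4.72 and 4.53 and the upper quartiles 8.97 and 9.24. A gene near 3 is therefore close to the dimmest signals of the array, and no detection call was used here to say which values are background. The 2 lines had a like number of bright genes, 6258 genes at 8 or more in M1-2 and 6587 in M2-3.

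As background, a squamous carcinoma arises from the stratified epithelium of the oral mucosa, whose basal cells carry keratins 5 and 14, the factor p63 and hemidesmosomes, and whose cells are held to each other by desmosomes and E-cadherin. Cancer cells can leave this state partly or fully in epithelial-mesenchymal transition (EMT). In that change the Snail, Zeb, Twist and Prrx factors are known to lower junction genes and to raise vimentin, N-cadherin, fibronectin and contractile proteins, and cells that hold both programs at once are called hybrid. In a bulk RNA sample, fewer cells of a type and less RNA per cell cannot be told apart, so a line with both programs may hold cells with both or a mixture of cells with one each.

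Among genes at 8 or more in at least 1 line, 3578 (48.8%) were within 1 unit and the median absolute difference was 1.03. Of the 5517 genes at 8 or more in both lines, 3317 (60.1%) were within 1 unit. The median difference was -0.01 over all named genes and -0.27 over genes that reached 8. A further 741 genes reached 8 in M1-2 only and 1070 in M2-3 only. Large differences were somewhat more often toward M1-2: 321 genes were at least 4 units higher in M1-2 and 268 in M2-3, and at 8 units the counts were 51 and 45. Among genes close to the limits, 28 had a difference of 2 or more with a higher value between 7.9 and 8 and were not counted. Another 111 genes that reached 8 differed by 1.9 to under 2, while 131 differed by 2 to 2.1. In the scatter of named genes the called genes form 2 wings that run down to the dimmest values of the other line. Of the 805 genes higher in M1-2, 148 lay under the array median in M2-3, and of the 1046 higher in M2-3, 142 lay under the array median in M1-2.

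**Figure D1:**
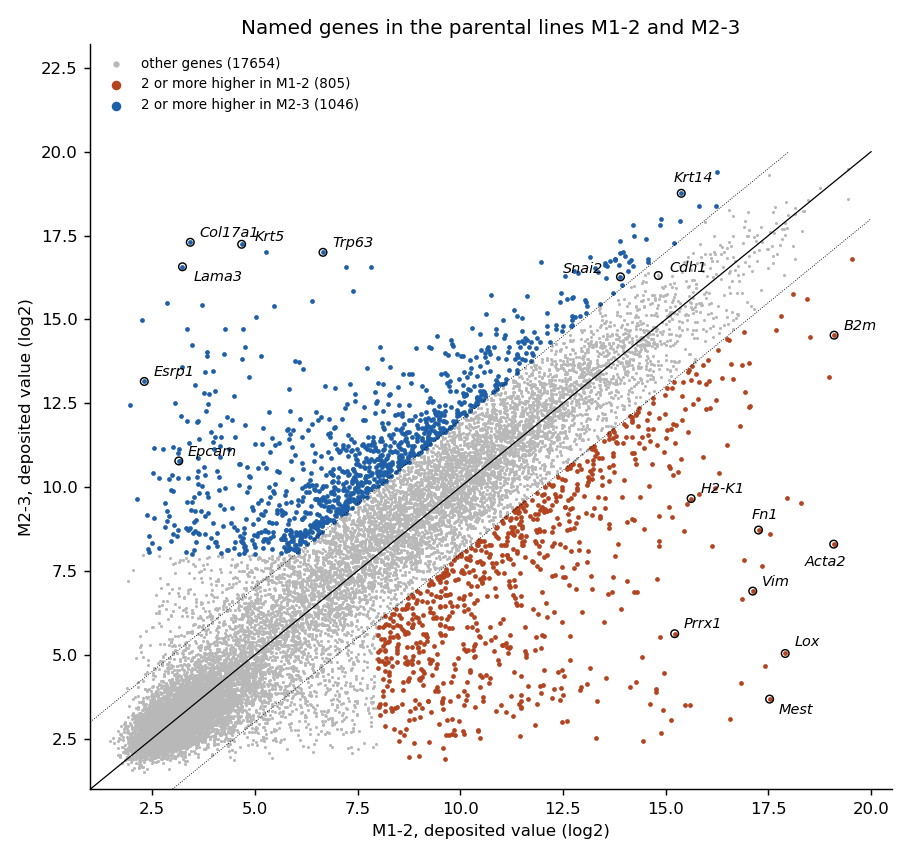
Deposited value of each of 19505 named genes in M1-2 (x axis, log2) and M2-3 (y axis, log2), with 1 point a gene. The solid line marks equal values, the dotted lines a difference of 2, and the 805 red and 1046 blue points are the genes called higher in M1-2 and in M2-3. Mest at 17.53 in M1-2 and 3.68 in M2-3 and Col17a1 at 3.43 in M1-2 and 17.30 in M2-3 lie at the ends of the 2 wings, while Cdh1 is bright in both.

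The labelled cell type, an oral cancer line, was checked against its markers. Of 8 keratinocyte markers, 5 reached 8 in M1-2 and 8 reached it in M2-3. The 3 that did not in M1-2 were Trp63, Krt5 and Epcam. Trp63, which encodes the p63 factor of basal stratified epithelium, was 6.66 in M1-2 and 17.00 in M2-3. Krt5, the type II keratin of basal cells, was 4.68 in M1-2 and 17.24 in M2-3. Epcam, an epithelial adhesion molecule, was 3.15 in M1-2 and 10.78 in M2-3. M2-3 thus carried every keratinocyte marker on the list and M1-2 a part of them. Markers of other cells that a tongue tumor holds were dim in both lines. The highest of 7 endothelial markers was 4.16 in M1-2 (Vwf) and 3.73 in M2-3 (Tie1), and the highest of 8 leukocyte markers, Ptprc, was 3.69 in M1-2 and 3.53 in M2-3. The highest of 5 Schwann cell and melanocyte markers was 3.76 in M1-2 (Sox10) and 4.15 in M2-3 (Pmel). None of 8 skeletal muscle markers reached 8 in either line, with the highest, Ckm, at 5.67 in M1-2 and 5.76 in M2-3. Of a wider list of 30 skeletal muscle genes, 1 reached 8 and was called, Tnnt2 at 11.60 in M1-2 and 5.02 in M2-3. Fibroblast and smooth muscle markers differed and are given below. Of 7 measured Y-linked genes, 2 reached 8 in each line. Eif2s3y was 9.53 in M1-2 and 10.06 in M2-3, and Uty was 10.18 in M1-2 and 9.15 in M2-3. Kdm5d was 7.29 in M1-2 and 6.48 in M2-3. The rest were dim in both lines. Usp9y was 3.06 in M1-2 and 2.15 in M2-3 and Sry 3.67 in M1-2 and 3.19 in M2-3. Zfy1 was 1.66 in M1-2 and 2.44 in M2-3 and Zfy2 2.54 in M1-2 and 2.63 in M2-3.

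The basal keratinocyte program was split in M1-2. Of 14 measured genes, 2 were higher in M1-2 and 6 in M2-3, and the median difference was -3.14, against -0.01 over all genes. Krt14, the type I keratin that pairs with keratin 5 in basal cells, was 15.38 in M1-2 and 18.76 in M2-3, so M1-2 had a bright keratin 14 signal beside a keratin 5 signal at about the array median. Krt17, a keratin of injured and tumor epithelium, was 13.53 in M1-2 and 15.12 in M2-3 and did not reach a difference of 2. In the sphere-selected lines Krt14 was 3.39 in NHRI-HN1 and 17.70 in NHRI-HN2 and Krt17 was 2.48 in NHRI-HN1 and 15.07 in NHRI-HN2. NHRI-HN2 was like its parent for both keratins, while NHRI-HN1 was at the dim end.

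The hemidesmosome, the anchor of basal cells on their basement membrane, differed by part. Its integrin subunits were bright in both lines. Itga6 was 16.33 in M1-2 and 14.73 in M2-3 and Itgb4 was 13.74 in M1-2 and 14.82 in M2-3. Its collagen and a chain of its laminin ligand were not. Col17a1, the transmembrane collagen XVII, was 3.43 in M1-2 and 17.30 in M2-3, the largest difference toward M2-3 of any gene that reached 8. Lama3 and Lamb3 encode chains of the laminin that hemidesmosomes bind, with Lama3 at 3.24 in M1-2 and 16.57 in M2-3 and Lamb3 at 8.11 in M1-2 and 13.07 in M2-3. Dst, a cytoskeletal linker whose epithelial isoform is a hemidesmosome plaque protein, was 11.16 in M1-2 and 8.64 in M2-3 and so higher in M1-2, though the array value does not say which isoform. Pdpn, podoplanin, a mucin-type protein of basal and migrating cells, was 13.56 in M1-2 and 4.32 in M2-3, the largest difference toward M1-2 in this group. Bnc1, a zinc finger protein of basal keratinocytes, was 4.10 in M1-2 and 7.95 in M2-3, and Krt15 at 4.20 in M1-2 and 7.09 in M2-3 reached 8 in neither.

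Squamous lineage factors outside p63 differed by member. Of 17 measured factors, 1 was higher in M1-2, 4 were higher in M2-3, and 6 were at 8 or more in both lines and within 1 unit. Sox2, a factor of the foregut epithelium and of squamous carcinomas, was 11.90 in M1-2 and 11.80 in M2-3. Pitx1, a factor of the oral ectoderm, was 10.89 in M1-2 and 10.33 in M2-3, and Pax9, needed for the tongue and oral epithelium, was 9.78 in M1-2 and 9.51 in M2-3. Tfap2a was 12.99 in M1-2 and 13.30 in M2-3 and Klf4 10.40 in M1-2 and 10.99 in M2-3. Maf was 10.00 in M1-2 and 9.54 in M2-3. All 6 stood within 1 unit, but over the whole list 12 differences were below 0, the direction of Trp63, and 5 above. The 6 factors that reached 8 in neither line were Zfp750 at 3.54 in M1-2 and 7.66 in M2-3, Tfap2c at 3.29 in M1-2 and 6.37 in M2-3, Trp73 at 2.75 in M1-2 and 4.76 in M2-3, Foxe1 at 3.23 in M1-2 and 4.28 in M2-3, Foxn1 at 2.85 in M1-2 and 3.23 in M2-3 and Tfap2b at 2.98 in M1-2 and 3.27 in M2-3. The exceptions toward M2-3 beside Trp63 were Barx2, a homeobox factor, at 3.05 in M1-2 and 12.51 in M2-3, Klf5 at 11.86 in M1-2 and 14.46 in M2-3 and Hopx at 5.81 in M1-2 and 8.33 in M2-3. Nkx2-3, a homeobox factor of the pharyngeal and oral epithelium, was 11.19 in M1-2 and 7.09 in M2-3, the one factor higher in M1-2. In the sphere-selected lines Sox2 was 3.85 in NHRI-HN1 and 11.71 in NHRI-HN2 and Pax9 was 3.65 in NHRI-HN1 and 10.16 in NHRI-HN2, so these factors, level between the parents, were dim in NHRI-HN1 alone of the 4 lines.

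Differentiation above the basal layer was dim in both lines. Of 42 cornified envelope and suprabasal genes, 35 reached 8 in neither line. Among these, Ivl was 3.82 in M1-2 and 5.62 in M2-3, Lor was 2.80 in M1-2 and 3.22 in M2-3 and Tgm1 was 3.80 in M1-2 and 5.01 in M2-3. The 7 that did reach 8 were all higher in M2-3, which is 16.7% of the list. Krt16, a keratin of hyperproliferative epithelium, was 5.46 in M1-2 and 15.40 in M2-3. Serpinb5, or maspin, an epithelial serpin, was 2.87 in M1-2 and 15.48 in M2-3. Sfn, the epithelial 14-3-3 protein sigma, was 9.82 in M1-2 and 14.22 in M2-3 and was the only one of the 7 at 8 or more in M1-2 too. Dmkn was 2.66 in M1-2 and 10.28 in M2-3 and Ly6d 3.36 in M1-2 and 9.56 in M2-3. Simple epithelial keratins ran the other way in a single gene. Krt18 was 10.08 in M1-2 and 3.49 in M2-3, while Krt8, the type II keratin with which keratin 18 pairs, was 5.08 in M1-2 and 4.86 in M2-3 and Krt7 and Krt19 were under 5 in both.

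Desmosome genes differed by part as well. Of 15 genes, none was higher in M1-2 and 9 were higher in M2-3, with a median difference of -3.68. Several plaque proteins were bright in both lines. Pkp1, plakophilin 1, was 15.20 in M1-2 and 16.10 in M2-3; Dsp, desmoplakin, was 12.42 in M1-2 and 15.53 in M2-3; and Jup, plakoglobin, was 12.77 in M1-2 and 16.45 in M2-3. Perp, a tetraspan protein of desmosomes that p63 is known to induce, was 15.34 in M1-2 and 17.94 in M2-3. The desmosomal cadherins did not reach 8 in M1-2. Dsc3 was 5.27 in M1-2 and 17.00 in M2-3, Dsg3 was 3.72 in M1-2 and 15.44 in M2-3 and Dsc2 was 3.55 in M1-2 and 13.05 in M2-3. Dsg1b was 1.97 in M1-2 and 12.44 in M2-3, Dsg1a 3.00 in M1-2 and 9.88 in M2-3 and Dsg2 2.82 in M1-2 and 9.53 in M2-3. The plaque proteins Pkp2 at 5.83 in M1-2 and 4.35 in M2-3 and Pkp3 at 3.15 in M1-2 and 6.99 in M2-3 reached 8 in neither line. M1-2 thus had bright signals for some plaque genes and dim signals for all 6 of these cadherins, and M2-3 was bright for both. In NHRI-HN1 Pkp1 at 4.74 and Dsp at 2.67 were dim as well and Jup was 11.32, while NHRI-HN2 had Pkp1 at 15.06, Dsp at 14.60 and Dsc3 at 16.32.

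The classical cadherins were a further case of both programs in M1-2. Cdh1, E-cadherin of adherens junctions, was 14.82 in M1-2 and 16.31 in M2-3, within 2 units. Cdh3, P-cadherin of basal epithelium, was 12.36 in M1-2 and 10.47 in M2-3. Cdh2, N-cadherin, which mesenchymal and neural cells use, was 14.28 in M1-2 and 4.20 in M2-3. M1-2 was bright for all 3 and M2-3 for E- and P-cadherin only. The sphere-selected lines each had one side: Cdh1 was 3.71 in NHRI-HN1 and 16.06 in NHRI-HN2 and Cdh2 was 12.38 in NHRI-HN1 and 3.60 in NHRI-HN2.

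Several genes that guard epithelial identity were dim in M1-2 and bright in M2-3. Of 25 measured, 9 (36.0%) were higher in M2-3 and 1 in M1-2, with a median difference of -3.32. Esrp1 and Esrp2 encode splicing factors that set epithelial exon choice, with Esrp1 at 2.31 in M1-2 and 13.15 in M2-3 and Esrp2 at 5.86 in M1-2 and 11.59 in M2-3. Grhl2, a grainyhead factor that activates junction genes, was 2.52 in M1-2 and 10.42 in M2-3. Rab25, a GTPase of apical recycling, was 4.49 in M1-2 and 12.73 in M2-3. The transmembrane protease St14, matriptase, was 2.55 in M1-2 and 9.09 in M2-3, and its Kunitz inhibitors were Spint1 at 3.55 in M1-2 and 8.69 in M2-3 and Spint2 at 3.64 in M1-2 and 11.43 in M2-3. Every one of these 7 was under 6 in M1-2 and over 8 in M2-3. Mpzl2, an epithelial adhesion molecule, was 3.38 in M1-2 and 10.28 in M2-3. The member against the trend was Mal2, a protein of apical transport, at 11.12 in M1-2 and 5.36 in M2-3, and Macc1 was level at 10.50 in M1-2 and 10.17 in M2-3. Ovol1, Ovol2, Grhl1, Grhl3, Elf3 and Elf5 reached 8 in neither line. In tight junctions, 3 of 23 genes were higher in M2-3 and none in M1-2. These were Lsr, a tricellular junction protein, at 3.39 in M1-2 and 8.75 in M2-3, Cldn8 at 2.68 in M1-2 and 8.19 in M2-3 and Llgl2, a polarity protein, at 7.00 in M1-2 and 9.36 in M2-3. Claudins 1, 3, 4 and 7 and occludin stood under 6 in both lines, and the scaffold Tjp1 was 12.08 in M1-2 and 10.39 in M2-3.

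The promoters of guardian genes are known for E-boxes, the sites that Snail and Zeb repressors bind, so the bases before the start of 4 genes higher in M2-3 are printed to show them. Each line gives the 250 bases before the annotated start, 5′ to 3′ on the strand of the gene, from RefSeq on build GRCm38.p6. Capitals mark the E-box letters CACCTG or, for the other strand, CAGGTG. Epcam lies at chr17:87635729-87635978 on the plus strand, Rab25 at chr3:88548280-88548529, Spint2 at chr7:29281978-29282227 and Lsr at chr7:30973470-30973719, all 3 on the minus strand.
Epcam: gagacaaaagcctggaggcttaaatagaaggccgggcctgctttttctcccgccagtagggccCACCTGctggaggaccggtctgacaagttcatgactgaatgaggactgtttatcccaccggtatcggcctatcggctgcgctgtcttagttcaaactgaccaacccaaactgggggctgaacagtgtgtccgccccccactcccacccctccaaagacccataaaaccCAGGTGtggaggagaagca
Rab25: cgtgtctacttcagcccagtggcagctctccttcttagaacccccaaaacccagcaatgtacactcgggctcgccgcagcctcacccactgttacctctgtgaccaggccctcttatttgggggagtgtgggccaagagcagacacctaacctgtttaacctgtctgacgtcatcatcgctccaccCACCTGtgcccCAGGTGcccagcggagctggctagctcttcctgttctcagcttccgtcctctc
Spint2: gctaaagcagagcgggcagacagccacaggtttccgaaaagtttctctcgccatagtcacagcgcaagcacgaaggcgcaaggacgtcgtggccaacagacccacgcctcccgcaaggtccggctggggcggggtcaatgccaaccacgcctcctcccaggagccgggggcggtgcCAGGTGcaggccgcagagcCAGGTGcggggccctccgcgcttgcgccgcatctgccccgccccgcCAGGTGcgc
Lsr: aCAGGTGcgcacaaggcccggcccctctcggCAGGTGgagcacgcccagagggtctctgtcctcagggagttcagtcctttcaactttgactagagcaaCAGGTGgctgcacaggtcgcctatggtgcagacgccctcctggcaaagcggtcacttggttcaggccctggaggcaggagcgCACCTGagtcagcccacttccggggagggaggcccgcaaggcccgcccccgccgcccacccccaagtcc

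The Epcam stretch held 2 matches, whose first bases lie 187 and 19 bases before the start, and the Rab25 stretch 2, at 64 and 53 bases. Spint2 held 3, at 74, 55 and 9 bases, and Lsr held 4, the nearest 69 bases away. All 4 printed genes hold the letters, and Lsr comes from the tight junction list. Among guardian genes with a promoter in the table, 9 of 14 (64.3%) held at least 1 E-box in this window, and in the tight junction list 9 of 16 (56.2%). Spint1, a guardian higher in M2-3, held none. The guardians Esrp1, Esrp2, Grhl2, St14 and Mpzl2, also higher in M2-3, had no promoter to search. The share was 17.1% of all 27025 genes with a promoter, 13.5% of those higher in M1-2, 13.9% of those higher in M2-3 and 13.1% of genes that reached 8. The letters were thus about as common among all genes higher in M2-3 as among bright genes in general. Members with the letters included Elf3 and Elf5, which were dim in both lines, and a match is a description of the sequence, not a site in use. The GRHL sequence AACCGGTT was in none of the 14 guardian promoters and in 0.122% of all.

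Of 20 EMT transcription factors, 6 (30.0%) were higher in M1-2 and 2 in M2-3, and the median difference was 1.44. Prrx1, a homeobox factor of mesenchyme, was 15.22 in M1-2 and 5.63 in M2-3 and its paralog Prrx2 was 12.04 in M1-2 and 4.55 in M2-3. Zeb1, a zinc finger repressor of E-cadherin and the guardian genes, was 11.95 in M1-2 and 4.08 in M2-3. Tcf4, an E protein, was 15.46 in M1-2 and 12.32 in M2-3, Sox11 9.01 in M1-2 and 5.39 in M2-3 and Foxf2 8.87 in M1-2 and 3.09 in M2-3. The first 3 were dim in M2-3, and Tcf4 was bright in both. Snai2, or Slug, a repressor that basal keratinocytes carry too, was 13.90 in M1-2 and 16.27 in M2-3, higher in M2-3 by the rule and bright in all 4 lines, with 15.09 in NHRI-HN1 and 16.40 in NHRI-HN2. Tbx2 was the other factor higher in M2-3, at 5.69 in M1-2 and 9.25 in M2-3. Snai1 was 5.32 in M1-2 and 4.55 in M2-3 and Twist1 7.35 in M1-2 and 4.56 in M2-3, and neither reached 8. Sox9 at 11.43 in M1-2 and 13.02 in M2-3, Tbx3 at 10.55 in M1-2 and 10.16 in M2-3, Sox4 at 9.07 in M1-2 and 7.27 in M2-3, Foxc1 at 7.40 in M1-2 and 5.35 in M2-3 and Foxf1 at 7.87 in M1-2 and 3.42 in M2-3 were not called, and neither were Foxc2, Foxd1, Msx1, Msx2 and Twist2, none over 5 in either line.

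Mesenchymal adhesion and cytoskeleton genes formed the list with the highest median, 6.10, and 12 of 17 (70.6%) were higher in M1-2 and none in M2-3. Vim, the intermediate filament of mesenchymal cells, was 17.12 in M1-2 and 6.90 in M2-3. Fn1, fibronectin, was 17.26 in M1-2 and 8.72 in M2-3. S100a4 was 11.16 in M1-2 and 5.06 in M2-3, Cdh11, a cadherin of mesenchyme, 11.32 in M1-2 and 7.23 in M2-3 and Ncam1 14.06 in M1-2 and 8.97 in M2-3. Within this list 4 contractile genes stood furthest apart. Acta2, alpha-smooth muscle actin, was 19.09 in M1-2 and 8.30 in M2-3. By immunostaining, the paper reports this protein as absent from both parental lines and from the sphere-selected line that grew tumors in mice. The array reads RNA, so the Acta2 value of M1-2 does not show that the protein was made. Why RNA and staining differ was not tested. Tagln, the actin-binding transgelin, was 16.83 in M1-2 and 4.15 in M2-3, Cnn1, calponin, was 14.77 in M1-2 and 3.88 in M2-3 and Actg2, the enteric smooth muscle actin, was 14.44 in M1-2 and 2.44 in M2-3. The contractile genes Myl9 at 11.99 in M1-2 and 5.59 in M2-3, Cald1 at 15.24 in M1-2 and 11.84 in M2-3 and Tpm2 at 14.25 in M1-2 and 12.50 in M2-3 differed less, and Tpm2 was not called. Each of the first 4 was over 14 in M1-2, and 3 of them were under 5 in M2-3. The smooth muscle list they belong to had 4 of 10 higher in M1-2 and none in M2-3. Its factor Myocd was 2.43 in M1-2 and 2.56 in M2-3, Des 5.26 in M1-2 and 2.25 in M2-3 and Myh11, the smooth muscle myosin, 7.48 in M1-2 and 3.56 in M2-3, so the defining myosin and its factor did not reach 8 in M1-2. Smtn was level, at 10.04 in M1-2 and 10.10 in M2-3.

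**Figure D2:**
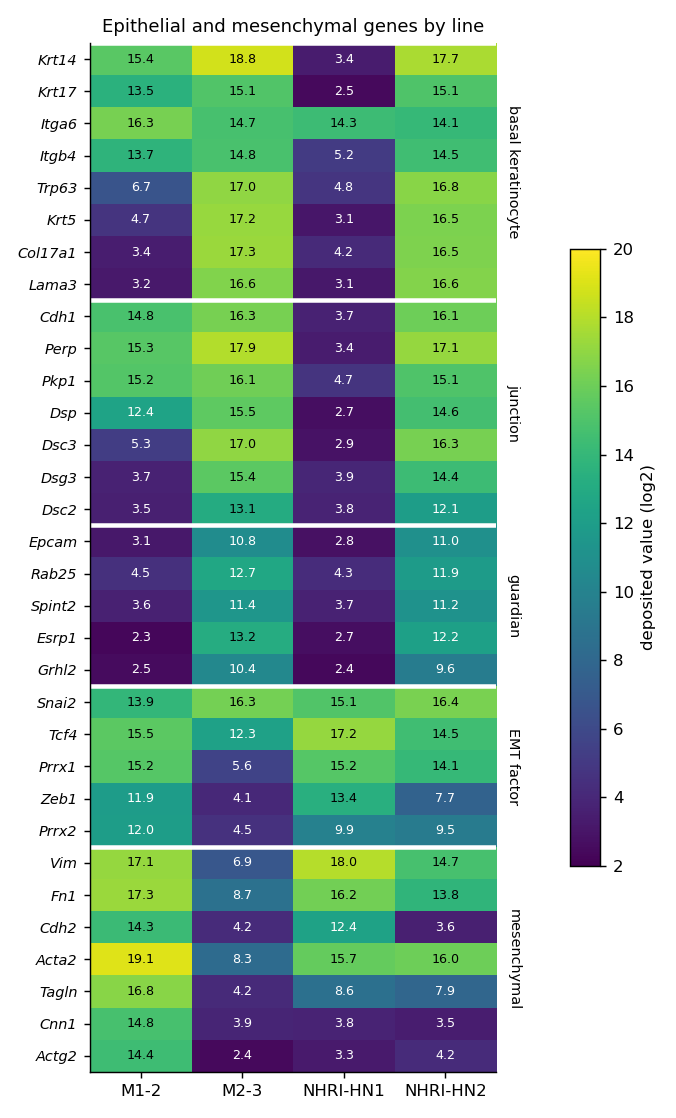
Deposited value (log2, color and printed to 1 decimal) of epithelial and mesenchymal genes in M1-2, M2-3, NHRI-HN1 and NHRI-HN2, with 1 array a column. M1-2 is bright for Krt14, Cdh1, Pkp1 and Dsp and for Vim, Cdh2 and contractile genes at once; M2-3 is bright for the first set and lower than M1-2 for the second, and the guardian rows are dim in M1-2 and NHRI-HN1.

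The contractile genes also set M1-2 apart from the line grown out of it. Cnn1 was 3.76 in NHRI-HN1 and 3.46 in NHRI-HN2 and Actg2 was 3.33 in NHRI-HN1 and 4.19 in NHRI-HN2, so M1-2 was the only bright line of the 4 for both. Tagln was 8.62 in NHRI-HN1 and 7.91 in NHRI-HN2. Acta2 was 15.74 in NHRI-HN1 and 16.02 in NHRI-HN2, and with 16.02 NHRI-HN2 was bright for it while its parent M2-3 was at 8.30. Vim and Fn1 were likewise bright in NHRI-HN2, with Vim 17.99 in NHRI-HN1 and 14.74 in NHRI-HN2 and Fn1 16.20 in NHRI-HN1 and 13.77 in NHRI-HN2, so M2-3 had the lowest value of the 4 lines for Acta2, Vim and Fn1.

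Matrix genes were the second large block higher in M1-2. Of 38 proteoglycan and matricellular genes, 19 (50.0%) were higher in M1-2 and 2 in M2-3, with a median difference of 3.17. Lox, the lysyl oxidase that crosslinks collagen and elastin, was 17.91 in M1-2 and 5.04 in M2-3. Ogn, the leucine-rich proteoglycan osteoglycin, was 17.43 in M1-2 and 4.66 in M2-3. Thbs1, thrombospondin 1, was 17.55 in M1-2 and 8.59 in M2-3, Ccn1, a target of YAP signaling, 17.34 in M1-2 and 7.64 in M2-3 and Nid1, a basement membrane linker, 11.65 in M1-2 and 3.67 in M2-3. Fbln5 was 13.16 in M1-2 and 4.60 in M2-3. Lox and Ogn are among the 5 genes with the largest differences toward M1-2. The 2 members higher in M2-3 were Tgfbi, a keratinocyte matrix protein induced by TGF-beta, at 6.40 in M1-2 and 15.55 in M2-3 and Sparcl1 at 3.82 in M1-2 and 12.26 in M2-3. Sparc was bright in both, at 19.54 in M1-2 and 16.80 in M2-3.

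Fibrillar collagen was not uniform. Of 23 collagen genes, 5 were higher in M1-2 and 1, Col17a1, in M2-3. Col1a1 was 11.66 in M1-2 and 4.07 in M2-3, but Col1a2, whose chain joins it in type I collagen, was 5.30 in M1-2 and 2.97 in M2-3, and Col3a1 was 6.89 in M1-2 and 2.92 in M2-3. Col4a2 was 9.52 in M1-2 and 5.66 in M2-3 and Col18a1 10.91 in M1-2 and 11.85 in M2-3. Of 17 fibroblast markers, 5 were higher in M1-2 and none in M2-3. Col1a1, Col6a1 and Col6a3 among these 5 are also counted in the collagen list, so the 2 lists are not separate. Pdgfrb, the PDGF receptor of fibroblasts and pericytes, was 9.79 in M1-2 and 2.65 in M2-3, Dcn, decorin, was level at 8.93 in M1-2 and 8.42 in M2-3, and Thy1 and Lum were under 4 in both. Of 8 fibroblast marker genes 3 reached 8 in M1-2 and 1 in M2-3. Their part in the mesenchymal genes of M1-2 was not tested.

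Matrix proteases and their inhibitors had 9 of 32 (28.1%) higher in M1-2 and none in M2-3. The inhibitors Timp3 and Timp1 had the largest differences of the list. Timp3, bound to matrix, was 16.57 in M1-2 and 3.10 in M2-3, Timp1 14.86 in M1-2 and 5.52 in M2-3 and Timp2 17.02 in M1-2 and 12.40 in M2-3. Timp4 was dim in both, at 3.19 in M1-2 and 3.13 in M2-3. Mmp14, the membrane metalloprotease that activates Mmp2, was 15.38 in M1-2 and 10.83 in M2-3, Mmp2 itself 9.85 in M1-2 and 4.72 in M2-3 and Adam12 12.46 in M1-2 and 4.01 in M2-3. Plaur, the urokinase receptor, was 9.84 in M1-2 and 2.77 in M2-3, whereas its ligand Plau was level at 11.52 in M1-2 and 11.61 in M2-3. Mmp3 and Mmp9 reached 8 in neither. Of 22 integrins, 5 were higher in M1-2 and 2 in M2-3. Toward M1-2 stood Itga11, a collagen receptor subunit, at 10.09 in M1-2 and 2.64 in M2-3, Itgb3 at 10.23 in M1-2 and 4.54 in M2-3 and the fibronectin receptor subunit Itga5 at 9.95 in M1-2 and 4.92 in M2-3. Toward M2-3 stood Itga2, a collagen receptor subunit of epithelium, at 3.13 in M1-2 and 11.01 in M2-3 and Itgb6, whose heterodimer activates latent TGF-beta, at 4.68 in M1-2 and 8.35 in M2-3. Itga3 was level, at 13.55 in M1-2 and 13.69 in M2-3, as was Itgav at 10.44 in M1-2 and 10.22 in M2-3.

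**Figure D3:**
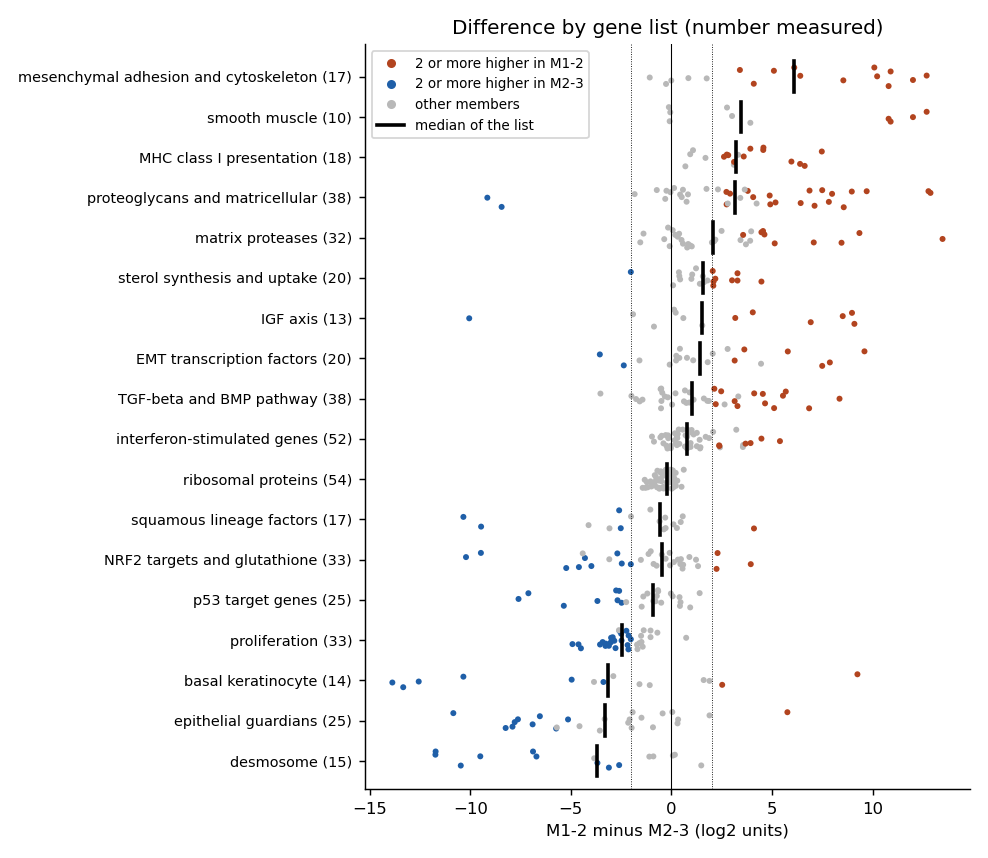
Difference M1-2 minus M2-3 (x axis, log2 units) of each measured member of 18 gene lists, 1 point a gene, with the number measured in brackets and a black bar at the median. Red and blue points are genes called higher in M1-2 and in M2-3; mesenchymal genes have a median of 6.10 and desmosome genes of -3.68, and ribosomal protein genes sit at -0.24.

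Signals that act on these programs were also unequal. Of 38 TGF-beta and BMP pathway genes, 13 (34.2%) were higher in M1-2 and none in M2-3. Among ligands, Inhba, the activin A subunit, was 14.05 in M1-2 and 7.21 in M2-3, Bmp4 was 11.88 in M1-2 and 3.53 in M2-3 and Tgfb3 9.36 in M1-2 and 5.25 in M2-3, while Tgfb1 was level at 13.15 in M1-2 and 13.12 in M2-3. Of the receptors, Tgfbr2 was 13.85 in M1-2 and 8.31 in M2-3 and Tgfbr1 7.53 in M1-2 and 9.11 in M2-3. Targets and inhibitors included Pmepa1 at 15.11 in M1-2 and 10.57 in M2-3, Smad7 at 8.20 in M1-2 and 4.92 in M2-3, Id3 at 11.98 in M1-2 and 6.88 in M2-3 and the BMP antagonist Grem1 at 11.90 in M1-2 and 6.22 in M2-3. Ligand, receptor and target genes thus each had members higher in M1-2, and Id2, a BMP target, was level at 9.31 in M1-2 and 9.11 in M2-3.

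Growth factor genes went both ways among ligands and among receptors. In the IGF axis 6 of 13 (46.2%) were higher in M1-2 and 1 in M2-3. The ligands Igf1 and Igf2 were 12.91 in M1-2 and 3.94 in M2-3 and 12.23 in M1-2 and 3.72 in M2-3, and the adaptor Irs1 was 10.35 in M1-2 and 3.43 in M2-3, while the receptor Igf1r was level at 11.15 in M1-2 and 11.02 in M2-3. Among binding proteins, Igfbp4 was 16.91 in M1-2 and 7.82 in M2-3 and Igfbp7 18.51 in M1-2 and 14.47 in M2-3, and Igfbp3, which p53 and p63 are known to regulate, was 5.02 in M1-2 and 15.07 in M2-3, the one member higher in M2-3. Of the other receptor tyrosine kinases and ligands, 8 of 37 were higher in M1-2 and 3 in M2-3. Axl, a receptor tied to mesenchymal carcinoma cells, was 16.19 in M1-2 and 9.98 in M2-3 and Fgfr1 was 11.49 in M1-2 and 3.81 in M2-3. Fgfr2, whose epithelial isoform answers to mesenchymal ligands, was 6.96 in M1-2 and 11.79 in M2-3 and Ntrk2 3.62 in M1-2 and 10.47 in M2-3. Met was 12.14 in M1-2 and 10.90 in M2-3. In the ErbB family, Egfr was 6.38 in M1-2 and 9.45 in M2-3 and Erbb2 was 8.76 in M1-2 and 10.93 in M2-3, both higher in M2-3, while Lrig1, an inhibitor of ErbB receptors, was 8.27 in M1-2 and 4.40 in M2-3. Nrg1 was level, at 11.82 in M1-2 and 11.11 in M2-3.

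Notch genes had 2 of 21 higher in M1-2 and 5 in M2-3. Jag1, a Notch ligand, was 8.05 in M1-2 and 14.18 in M2-3, the largest difference toward M2-3 among genes at 8 or more in both lines. Jag2 was 8.89 in M1-2 and 12.11 in M2-3, the receptor Notch1 was 4.27 in M1-2 and 9.96 in M2-3, and the target genes Hes1 and Nrarp were 5.93 in M1-2 and 11.69 in M2-3 and 3.11 in M1-2 and 8.54 in M2-3. Receptor, ligands and targets stood higher in M2-3, whereas Notch2 was 11.16 in M1-2 and 7.90 in M2-3. In the sphere-selected lines Jag1 was 7.25 in NHRI-HN1 and 14.20 in NHRI-HN2 and Hes1 was 4.37 in NHRI-HN1 and 12.01 in NHRI-HN2. In the Wnt list 5 of 48 were higher in M1-2 and 3 in M2-3, with Lgr6, a receptor for R-spondins, at 10.56 in M1-2 and 3.74 in M2-3 and the antagonist Sfrp1 at 3.36 in M1-2 and 11.98 in M2-3. Among inflammatory factors, Csf1, the macrophage growth factor, was 16.86 in M1-2 and 6.65 in M2-3 and Ptgs2, the inducible cyclooxygenase, was 15.80 in M1-2 and 9.79 in M2-3, while Il6 and Csf2 reached 8 in neither. Of 26 chemokines, 1 was higher in M1-2, Cxcl5 at 8.52 in M1-2 and 2.44 in M2-3, and 2 in M2-3, Ccl2 at 6.91 in M1-2 and 10.55 in M2-3 and Cxcl16 at 8.57 in M1-2 and 10.72 in M2-3. Guidance genes had 8 of 45 higher in M1-2 and 5 in M2-3, with the ephrin receptor Epha2 at 12.66 in M1-2 and 5.57 in M2-3 and Epha7 at 4.03 in M1-2 and 11.50 in M2-3.

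Antigen presentation genes were higher in M1-2 along most of their path. Of 18 MHC class I presentation genes, 12 (66.7%) were higher in M1-2 and none in M2-3, the median difference was 3.21, and all 18 differences were above 0. Among heavy chains, H2-K1 was 15.62 in M1-2 and 9.66 in M2-3, H2-D1 13.71 in M1-2 and 7.32 in M2-3 and H2-Q4 9.67 in M1-2 and 3.05 in M2-3. These genes are near-identical copies in part, so their probe sets may share signal. B2m, the light chain, was 19.10 in M1-2 and 14.53 in M2-3. Psmb8, a subunit of the immunoproteasome, was 11.23 in M1-2 and 3.76 in M2-3. The peptide transporter subunit Tap1 was 10.06 in M1-2 and 7.45 in M2-3, and the loading factors Tapbp and Calr were 12.85 in M1-2 and 10.10 in M2-3 and 18.43 in M1-2 and 15.61 in M2-3. Heavy chains, light chain, proteasome, transporter and loading factors thus all had members higher in M1-2. Tap2 at 7.46 in M1-2 and 4.36 in M2-3 and Psmb9 at 7.61 in M1-2 and 4.30 in M2-3 fell short of 8, and Erap1, which trims peptides, was within 1 unit at 9.86 in M1-2 and 9.17 in M2-3.

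Interferon-stimulated genes did not move as one with the class I genes. Of 52 measured, 6 (11.5%) were higher in M1-2 and none in M2-3, the median difference was 0.79 and 36 reached 8 in neither line. Those higher in M1-2 were Bst2, the virion tether tetherin, at 10.29 in M1-2 and 5.82 in M2-3, Sp100 at 10.35 in M1-2 and 4.96 in M2-3, Irgm1, an immunity-related GTPase, at 11.74 in M1-2 and 7.81 in M2-3, Gbp7 at 8.46 in M1-2 and 4.78 in M2-3, Ddx58, which encodes the RNA sensor RIG-I, at 10.51 in M1-2 and 8.13 in M2-3 and Irf1, a factor that drives class I genes, at 12.84 in M1-2 and 10.47 in M2-3. The classic antiviral effectors were dim in both lines. Ifit1 was 4.16 in M1-2 and 3.89 in M2-3, Ifit3 4.72 in M1-2 and 3.77 in M2-3 and Isg15 3.01 in M1-2 and 2.62 in M2-3. In NHRI-HN1 against NHRI-HN2, 36 of the 52 genes stood 2 or more higher in NHRI-HN1 and none 2 or more lower, where the background over all genes, with no level asked, was 5.15% higher and 6.13% lower. Isg15 was 10.23 in NHRI-HN1 and 3.97 in NHRI-HN2 and Ifit1 12.70 in NHRI-HN1 and 5.11 in NHRI-HN2.

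The interferon-stimulated response element (ISRE) was searched in the same promoter window as GAAA, any 2 bases and GAAA, on both strands. The stretches of 2 genes higher in M1-2 and of Isg15, dim in both lines, are printed with the matches in capitals. Irgm1 lies at chr11:48871421-48871670, Bst2 at chr8:71537473-71537722 and Isg15 at chr4:156200819-156201068, all on the minus strand and on build GRCm38.p6.
Irgm1: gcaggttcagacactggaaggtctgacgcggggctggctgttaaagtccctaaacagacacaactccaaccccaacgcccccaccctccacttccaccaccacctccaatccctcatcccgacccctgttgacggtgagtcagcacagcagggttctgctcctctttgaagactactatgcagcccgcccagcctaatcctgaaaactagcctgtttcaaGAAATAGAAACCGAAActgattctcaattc
Bst2: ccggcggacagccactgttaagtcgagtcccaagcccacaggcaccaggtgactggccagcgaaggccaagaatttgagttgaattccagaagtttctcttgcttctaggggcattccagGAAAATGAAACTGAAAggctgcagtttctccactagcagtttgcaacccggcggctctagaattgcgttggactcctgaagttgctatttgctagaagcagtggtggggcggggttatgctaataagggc
Isg15: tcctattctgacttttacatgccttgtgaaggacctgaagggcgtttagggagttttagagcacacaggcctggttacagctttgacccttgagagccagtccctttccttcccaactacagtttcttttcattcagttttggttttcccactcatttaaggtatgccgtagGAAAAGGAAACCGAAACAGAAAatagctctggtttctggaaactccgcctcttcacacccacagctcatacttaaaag

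Matches overlap in all 3, with 2 in Irgm1 and in Bst2 and 3 in Isg15. These 3 were chosen for printing and all hold the element, so they cannot show whether it separates genes that differ. Of the interferon-stimulated genes higher in M1-2, Bst2, Irgm1 and Gbp7 held it and Sp100, Ddx58 and Irf1 did not. Of 40 interferon-stimulated genes with a RefSeq promoter, 17 (42.5%) held the element, against 3.04% of all genes and 2.33% of genes that reached 8. The element was in 3.57% of genes higher in M1-2 and 2.02% of genes higher in M2-3. In the class I list 3 of 17 (17.6%) held it, B2m, H2-T22 and H2-T23. The AP-1 letters TGANTCA were in 4.22% of promoters of genes higher in M1-2 and in 4.52% of those higher in M2-3. The share was 6.87% of all and 3.96% of genes that reached 8, so both groups stood near the bright genes.

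Proliferation genes were lower in M1-2 as a group. Of 33 measured, 21 (63.6%) were higher in M2-3 and none in M1-2, the median difference was -2.48, and 32 of the 33 differences were below 0. Mki67, the marker of cycling cells, was 13.77 in M1-2 and 16.77 in M2-3. Aurkb, a kinase of the chromosomal passenger complex, was 9.25 in M1-2 and 14.17 in M2-3, Birc5, its partner survivin, was 8.48 in M1-2 and 12.98 in M2-3, and the spindle motor Kif11 was 9.78 in M1-2 and 14.40 in M2-3. Replication genes were included, with the helicase subunits Mcm2 at 9.76 in M1-2 and 12.87 in M2-3 and Mcm5 at 7.90 in M1-2 and 11.32 in M2-3. Cyclin A2, Ccna2, was 10.92 in M1-2 and 13.84 in M2-3. Of the 33 genes, 24 were at 8 or more in M1-2 and 31 in M2-3, so for most of them the difference lay between bright signals. Rrm2, a ribonucleotide reductase subunit, was the exception, at 10.41 in M1-2 and 9.68 in M2-3. Replication-dependent histone genes H1f1 and H2bc7 were among the 10 largest differences toward M2-3 of genes bright in both, at 9.44 in M1-2 and 14.52 in M2-3 and 10.76 in M1-2 and 15.73 in M2-3. In the sphere-selected lines the median over the list was -0.04, so by the median NHRI-HN1 and NHRI-HN2 stood level where their parents did not. Even so, 3 of the 33 genes were 2 or more lower in NHRI-HN1 and none 2 or more higher. Birc5 was 10.08 in NHRI-HN1 and 12.48 in NHRI-HN2.

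**Figure D4:**
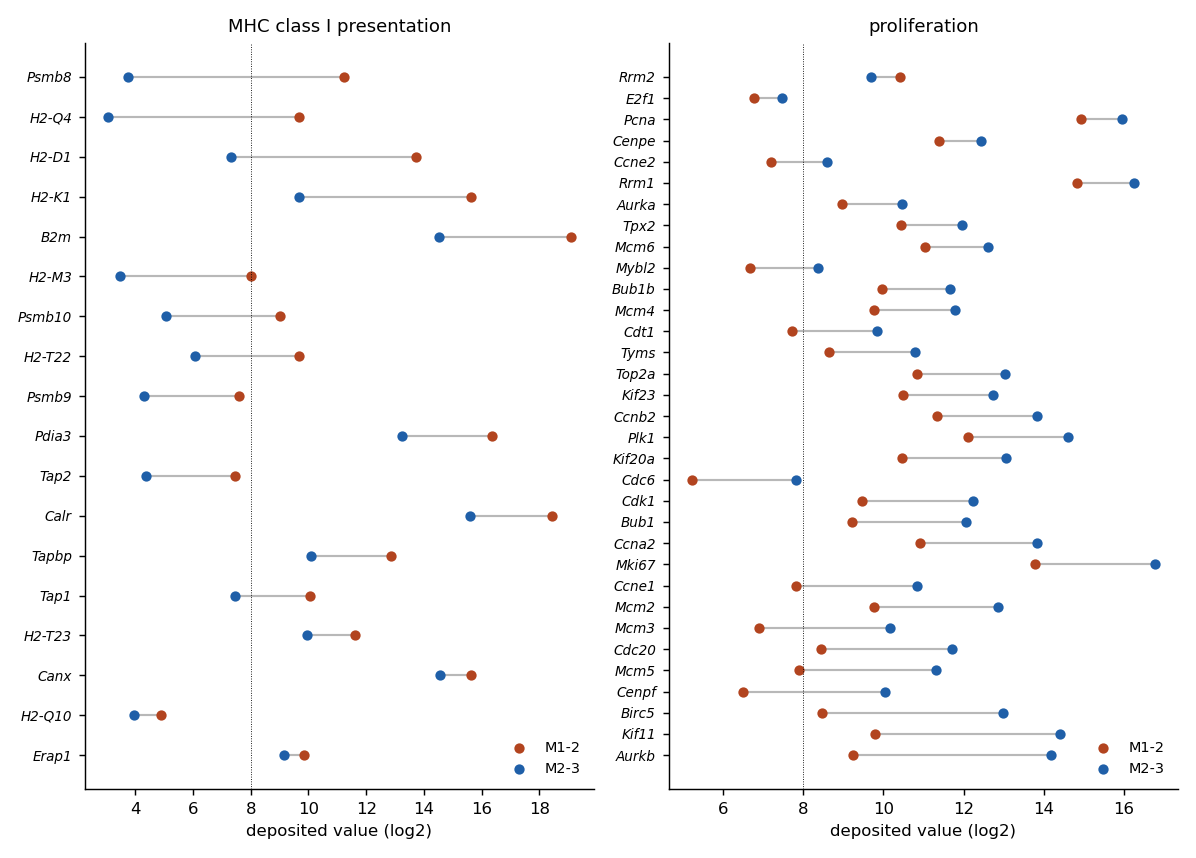
Deposited value (x axis, log2) of each measured MHC class I presentation gene (left) and proliferation gene (right) in M1-2 (red) and M2-3 (blue), 1 array a point, joined by a gray line and ordered by difference; the dotted line marks 8. M1-2 lies to the right of M2-3 for all 18 class I genes and to the left for 32 of 33 proliferation genes.

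On a list of cell cycle inhibitors, D cyclins and their kinases, 2 of 14 genes were higher in M1-2 and 4 in M2-3. Cdkn2a, whose locus encodes p16 and p19Arf, was 10.34 in M1-2 and 4.94 in M2-3, and its neighbor Cdkn2b was 8.02 in M1-2 and 5.83 in M2-3. Cdkn1a, which encodes p21, was 5.83 in M1-2 and 12.94 in M2-3. The others higher in M2-3 were the inhibitors Cdkn1b at 11.42 in M1-2 and 13.69 in M2-3 and Cdkn2c at 7.03 in M1-2 and 9.52 in M2-3 and the RB relative Rbl1 at 8.71 in M1-2 and 11.65 in M2-3. In the sphere-selected lines Cdkn2a was 2.31 in NHRI-HN1 and 6.53 in NHRI-HN2 and Cdkn1a 14.36 in NHRI-HN1 and 13.28 in NHRI-HN2. Of 25 p53 target genes 8 (32.0%) were higher in M2-3 and none in M1-2. Btg2, an antiproliferative gene, was 3.17 in M1-2 and 10.77 in M2-3, Eda2r, a death receptor, was 3.37 in M1-2 and 8.72 in M2-3 and Sesn1 was 8.49 in M1-2 and 12.17 in M2-3. Mdm2, the ubiquitin ligase of p53, was 11.51 in M1-2 and 12.71 in M2-3, within 2 units. Some of these genes belong to epithelium as well, among them Perp, and Gtse1 and Ckap2 are cell cycle genes.

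Metabolic genes gave 2 opposite groups. Of 20 sterol genes, all reached 8, 8 (40.0%) were higher in M1-2 and 1 in M2-3, and 19 differences were above 0. Hsd17b7, an enzyme of late cholesterol synthesis, was 15.09 in M1-2 and 10.62 in M2-3, Mvd 10.58 in M1-2 and 7.30 in M2-3, Fdps 12.36 in M1-2 and 9.08 in M2-3 and Sqle, the squalene epoxidase, 13.08 in M1-2 and 10.07 in M2-3. Hmgcs1 at 15.59 in M1-2 and 15.51 in M2-3 and the factor Srebf2 at 15.55 in M1-2 and 15.12 in M2-3 were within 1 unit. Scap, the escort of that factor, was 10.13 in M1-2 and 12.15 in M2-3. Among 33 NRF2 targets and glutathione genes, 3 were higher in M1-2 and 9 (27.3%) in M2-3. Nqo1, a quinone reductase, was 8.93 in M1-2 and 14.16 in M2-3, Gclc, the rate-limiting enzyme of glutathione synthesis, 7.92 in M1-2 and 12.22 in M2-3, Slc7a11, its cystine supplier, 5.49 in M1-2 and 10.09 in M2-3 and Gpx2, an epithelial glutathione peroxidase, 3.83 in M1-2 and 14.04 in M2-3. Gsta3 was 3.99 in M1-2 and 13.46 in M2-3. Hmox1, heme oxygenase, ran the other way at 12.28 in M1-2 and 8.34 in M2-3, and so did Txnrd1 at 11.57 in M1-2 and 9.28 in M2-3 and Gpx4 at 13.71 in M1-2 and 11.47 in M2-3. Aldh3a1, an aldehyde dehydrogenase of exposed epithelia, was 4.28 in M1-2 and 14.70 in M2-3. Most glycolytic genes were not called, with 2 of 23 higher in M1-2 and 3 in M2-3, among them Eno3, the muscle enolase, at 11.19 in M1-2 and 5.19 in M2-3 and the glucose transporter Slc2a1 at 14.87 in M1-2 and 17.80 in M2-3.

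Some single genes stood far apart outside these groups. Mest, an imprinted gene of embryonic mesoderm, had the largest difference toward M1-2, at 17.53 in M1-2 and 3.68 in M2-3. Grb10, another imprinted gene, was 11.46 in M1-2 and 2.59 in M2-3, and 3 of 26 imprinted genes were higher in M1-2 and 1, Plagl1, in M2-3, at 7.87 in M1-2 and 11.08 in M2-3. Aqp5, a water channel of salivary glands and other secretory epithelia, was 14.88 in M1-2 and 2.67 in M2-3. Cthrc1, a secreted matrix protein, was 15.12 in M1-2 and 3.05 in M2-3 and in the sphere-selected lines 2.62 in NHRI-HN1 and 2.43 in NHRI-HN2, so M1-2 alone was bright. Nr2f2, a nuclear receptor of mesenchyme, was 13.30 in M1-2 and 2.51 in M2-3. Toward M2-3, Ckmt1, a mitochondrial creatine kinase, was 2.26 in M1-2 and 14.98 in M2-3, Trim29, a protein of basal squamous epithelium, 3.48 in M1-2 and 14.25 in M2-3, and Car12, a carbonic anhydrase, 3.22 in M1-2 and 13.57 in M2-3. Among genes bright in both, Lgals1, galectin 1, was 18.29 in M1-2 and 9.53 in M2-3 and Emp3 was 17.95 in M1-2 and 9.69 in M2-3. The S100 genes split by member: S100a6 was 16.63 in M1-2 and 13.21 in M2-3 and S100a14, an epithelial member, was 4.16 in M1-2 and 11.85 in M2-3.

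Of 20 stem cell markers, 11 reached 8 in neither line and so could not be called. Among the 9 that did, 5 were at 8 or more in both lines and within 1 unit. The 1 higher in M1-2 was Lgr6, at 10.56 in M1-2 and 3.74 in M2-3, and 2 were higher in M2-3. Cd44 was 17.89 in M1-2 and 16.33 in M2-3, Cd24a 11.25 in M1-2 and 10.54 in M2-3 and Abcg2 11.06 in M1-2 and 10.71 in M2-3, while Prom1 at 3.62 in M1-2 and 3.05 in M2-3, Nanog at 4.32 in M1-2 and 4.13 in M2-3 and Pou5f1 at 2.27 in M1-2 and 2.37 in M2-3 were dim in both. Myc was 13.71 in M1-2 and 15.78 in M2-3. Ribosomal protein genes were close. All 54 ribosomal protein genes reached 8, none was called, 47 were within 1 unit and their median difference was -0.24. Gapdh was 18.16 in M1-2 and 18.13 in M2-3 and Eef1a1 19.44 in M1-2 and 19.49 in M2-3, though 2 of 14 housekeeping genes were higher in M1-2, B2m and Gusb, the second at 9.84 in M1-2 and 7.84 in M2-3. Hox genes reached 8 in neither line, with a highest value of 5.88 in M1-2 and 5.10 in M2-3 over 33 genes.

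The same difference between tumors of origin was then read in the sphere-selected lines, as NHRI-HN1 minus NHRI-HN2. These lines derive from M1-2 and M2-3, so they are further cultures of the same 2 tumors and not independent samples. Of the 805 genes higher in M1-2, 249 (30.9%) were also 2 or more higher in NHRI-HN1, 487 (60.5%) differed by less than 2 and 69 (8.57%) ran the opposite way by 2 or more. Of the 1046 genes higher in M2-3, 462 (44.2%) were also 2 or more higher in NHRI-HN2, 574 (54.9%) differed by less than 2 and 10 (0.956%) ran the opposite way. Over all 19505 named genes, with no level asked, 5.15% were 2 or more higher in NHRI-HN1 and 6.13% were 2 or more higher in NHRI-HN2. The 8.57% that ran the opposite way thus stands beside 6.13%, and the 0.956% beside 5.15%. The sets are unlike, because only 37.6% of named genes reached 8 in a parental line. Genes with the same direction in both pairs included Mest, with 19.71 in NHRI-HN1 and 7.61 in NHRI-HN2, Igf2, with 16.75 in NHRI-HN1 and 4.62 in NHRI-HN2, and Zeb1, with 13.37 in NHRI-HN1 and 7.65 in NHRI-HN2. Toward M2-3 they included Col17a1, with 4.15 in NHRI-HN1 and 16.51 in NHRI-HN2, Trp63, with 4.78 in NHRI-HN1 and 16.78 in NHRI-HN2, and Esrp1, with 2.70 in NHRI-HN1 and 12.21 in NHRI-HN2. Lox and Thbs1 were among those that did not, with Lox at 13.10 in NHRI-HN1 and 13.98 in NHRI-HN2 and Thbs1 at 9.66 in NHRI-HN1 and 13.90 in NHRI-HN2. In the plot of both pairs the genes higher in M2-3 run toward the lower left, while the genes higher in M1-2 spread to both sides of 0.

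**Figure D5:**
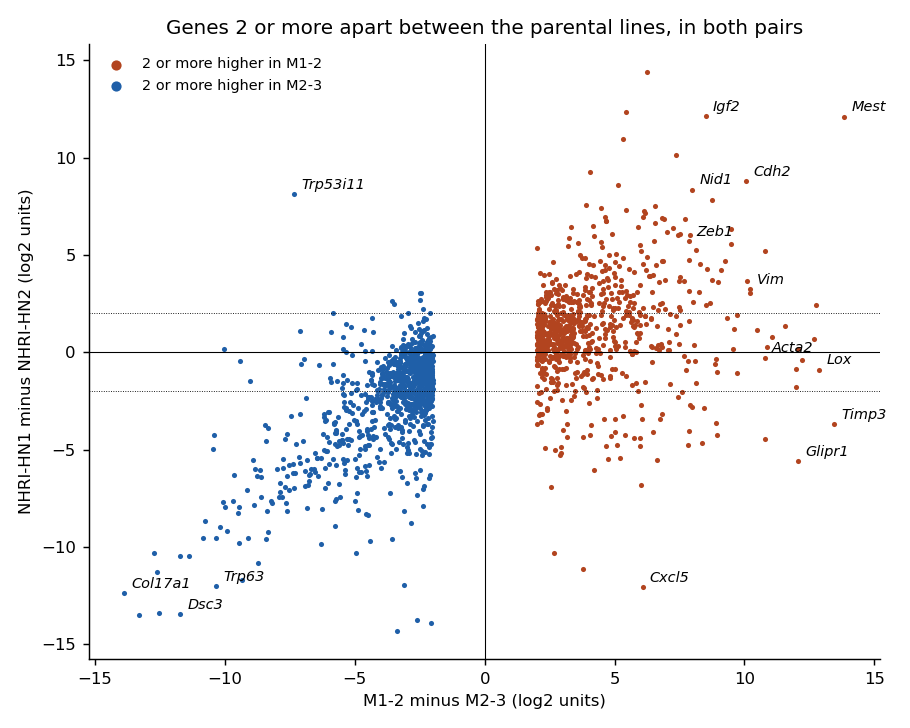
Difference M1-2 minus M2-3 (x axis, log2 units) against NHRI-HN1 minus NHRI-HN2 (y axis, log2 units) for the 1851 genes called between the parental lines, 1 point a gene, red for higher in M1-2 and blue for higher in M2-3. Dotted lines mark differences of 2 between the sphere-selected lines; 462 of 1046 blue points lie under the lower line and 249 of 805 red points above the upper one, with 69 red points under the lower.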

How the data were processed

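RNA of each line was hybridised by the authors to an Affymetrix Mouse Clariom S array. The authors deposited 1 value per probe set and array, computed with Partek 7 per the submitters' processing notes and taken here as log2; how they corrected background, normalized and summarized is not stated in the sources used here. Of 22206 probe sets, 19572 had 1 symbol in the platform annotation and 2634 were unnamed here; 55 genes had several probe sets, which were averaged. No column was left unmapped. Precision is limited by 1 array per line. Differences were computed with Python 3.11.15, numpy 2.4.6 and pandas 2.3.3. The code of the call rule was run on simulated shifts of known size, which gives no error for the calls in these data.

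The rule for named genes took the 15 largest differences each way, the 10 largest among genes bright in both lines, and for each list its first 4 members, up to 6 largest differences each way and up to 4 level genes, with all members of the basal keratinocyte, squamous factor, EMT factor and sex chromosome lists. Cald1, Calr, Ccna2, Ckm, Elf3, Elf5, Epas1, Esrp2, Gfra2, Grhl1, Grhl3, H2-T22, H2-T23, Mcm2, Myl9, Myocd, Ncam1, Ndnf, Ovol1, Ovol2, Pappa, Pkp2, Pkp3, Pmepa1, Psmb9, Smad7, Spint1, St14, Tap2, Tapbp, Timp4, Tpm2, Trp53i11 and Vwf were named outside it after their values were seen. Members and the 49 lists were chosen with earlier results of these data known. Alternatives were other levels and differences, quantile normalization, centring, raised dim values and the highest probe set. Promoters were found in RefSeq (GRCm38.p6) for 15691 of the 19505 genes.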

Additional observations from a re-analysis of the deposited data

Results flagged for a closer look

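Opposite directions in the 2 pairs of lines drew attention to 79 genes. In these the difference M1-2 minus M2-3 and the difference NHRI-HN1 minus NHRI-HN2 were each 2 or more in size and of opposite sign, in 69 genes higher in M1-2 and 10 genes higher in M2-3. With 1 array per line the difference between the 2 contrasts was not tested. The 8 genes in which the smaller of the 2 differences was largest are given with both, and Trp53i11, Gfra2, Epas1, Pappa and Ndnf are named only because they met this rule.

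Trp53i11 was -7.33 between the parents and 8.13 between the sphere-selected lines, with 6.18 in M1-2 and 13.51 in M2-3 and with 15.71 in NHRI-HN1 and 7.58 in NHRI-HN2. It was the one gene of the 8 higher in M2-3. Cxcl5, a neutrophil chemokine, was 6.08 and -12.05, with 8.52 in M1-2 and 2.44 in M2-3 and 2.08 in NHRI-HN1 and 14.13 in NHRI-HN2. Glipr1 was 12.08 and -5.58, and Fhl1, a LIM domain protein of muscle and other cells, was 6.62 and -5.54. Gfra2, a receptor for the neurotrophic factor neurturin, was 6.03 and -6.81. Epas1, which encodes the hypoxia factor HIF-2 alpha, was 5.21 and -5.44, with 14.24 in M1-2 and 9.03 in M2-3 and 3.05 in NHRI-HN1 and 8.49 in NHRI-HN2. Pappa, a protease that cleaves IGF-binding proteins, was 5.98 and -4.82, and Ndnf was 7.82 and -4.78.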

How the results depend on the processing

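There is 1 array per line, so no replicate could be left out. No paired analysis was possible because no result comes from a test. The counts of genes higher in M1-2 and in M2-3 followed the limits: they were 318 and 434 with a level of 8 asked in both lines, 1492 and 2258 at a difference of 1, and 321 and 268 at a difference of 4, where the larger count changed sides. Levels of 7 and 9 gave 952 and 1184 and 676 and 879, and no level gave 1186 and 1351. Quantile normalization gave 890 and 881, and centring on the median of genes that reached 8 gave 915 and 811. Which line had more genes thus depended on this choice. Centring shifts every M2-3 value by -0.27, so it cannot reverse a call or end one toward M1-2. Under quantile normalization all 805 genes higher in M1-2 remained called, as did 881 of those higher in M2-3, and no call changed direction. Under centring 811 of those higher in M2-3 remained called. Raising values under the array median to it cannot end a call at these limits, so it bears only on list medians, and the highest probe set gave 806 and 1046.

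Of the 9 lists with a median of 2 units or more, none changed direction under the alternatives run, and centring could not have changed one. Raising dim values brought the median of epithelial guardians to -1.49, matrix proteases to 0.87 and smooth muscle genes to 1.85. With only members that reached 8, the medians were -6.71 for desmosome genes, -6.54 for guardians, 5.80 for proteoglycan and matricellular genes, 4.88 for matrix proteases and 10.89 for smooth muscle genes, a choice that keeps a gene for being bright in 1 line. Of 300 named genes run under the alternatives, none reversed. Centring and raising dim values could not have reversed a called gene. Under quantile normalization or centring Cdh3 and Sox4, and under centring alone Tpm2, would be called higher in M1-2. Cxcl16, Erbb2, Scap, Myc and Cldn8 would lose their call under quantile normalization, centring or both. The size of a difference against a value near 3 rests on unmeasured background.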

Other observations

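The called genes were not spread evenly over chromosomes, which is given as a description. On chromosome 13, 10.4% of 740 genes were higher in M2-3 and 3.92% in M1-2. On chromosome 6, 8.18% of 1051 genes were higher in M2-3 and 3.24% in M1-2. Chromosome 12 ran the other way, with 7.67% of 587 genes higher in M1-2 and 3.07% in M2-3. The median difference over genes at 8 or more in both lines was -0.73 on chromosome 19, -0.63 on chromosome 11, -0.60 on chromosome 6 and 0.40 on chromosome 12. In the sphere-selected lines the same medians were -0.03, -0.66, -0.76 and 0.13. The values of chromosomes 6 and 11 thus recurred and that of chromosome 19 did not. Recurrence was not particular to these 2. Chromosome 5 was -0.43 between the parents and -0.65 between the sphere-selected lines, and chromosome 13 was -0.54 and -0.64. Chromosomes 4, 8 and 10 also stood at -0.58, -0.52 and -0.60 between the sphere-selected lines. DNA copy number was not measured here.

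Immune ligands other than MHC class I were mixed. Of 19 checkpoint and natural killer ligand genes, 2 were higher in M1-2 and 3 in M2-3. Icosl, a costimulatory ligand, was 3.21 in M1-2 and 12.12 in M2-3, H60c, a ligand of the NKG2D receptor, was 3.63 in M1-2 and 9.82 in M2-3 and Cd80 was 4.43 in M1-2 and 8.94 in M2-3. Lgals9, galectin 9, was 12.89 in M1-2 and 8.12 in M2-3 and Pvr, a nectin-like ligand, 8.92 in M1-2 and 6.12 in M2-3. Cd274, which encodes PD-L1, was 3.46 in M1-2 and 4.84 in M2-3, and Cd47 was level at 12.78 in M1-2 and 12.66 in M2-3.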
